A study of Mus musculus with 32 samples.

Results

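Mouse 4-cell embryos cultured with MG132, a peptide aldehyde that blocks the proteasome and to a lesser degree other cellular proteases, were compared with 4-cell embryos cultured with the drug solvent DMSO. The comparison rests on 4 of the 32 libraries of the series, chosen by the stage and treatment in their labels, with 2 libraries per group, and it was read across 55335 gene rows and 1153 repeat subfamily rows. Embryos of both groups were wild type (genotype WT), came from females of 6 to 8 weeks and were kept in KSOM, an embryo culture medium; the sample titles mark them as IVF. The dose of MG132, the time of its addition, the length of exposure and the number of embryos in a library are not stated in the labels used here. Wild-type 4-cell embryos with cycloheximide (CHX), which blocks translation, or aphidicolin (APH), which blocks replicative DNA polymerases, entered the same fit with 2 libraries each. Wild-type 2-cell embryos with MG132 or DMSO, also from females of 6 to 8 weeks and with 2 libraries each, were used to ask whether the effect of MG132 differed between stages. The fit of both stages also held 2-cell embryos with CHX or APH, with 2 libraries each. All embryos with CHX or APH came from females of 6 to 8 weeks. Untreated wild-type MII oocytes from females of 8 weeks (2 libraries) served to sort genes by their change before the 2-cell stage.

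The proteasome degrades proteins that carry ubiquitin chains. Its barrel-shaped 20S core encloses the proteolytic sites of the beta rings behind gated alpha rings, and the ATPases of its 19S cap unfold substrates and feed them into the core. In many cell types a blocked proteasome activates heat shock factor 1, which switches on chaperone genes, and lets the transcription factor NRF1 (encoded by Nfe2l1) reach the nucleus and raise proteasome subunit genes. In the mouse embryo the main wave of transcription from the new genome starts at the 2-cell stage, while RNAs and proteins laid down in the oocyte are removed, the proteins in part by the proteasome.

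The 2 DMSO libraries held 32925454 and 29079599 counts, the 2 MG132 libraries 31442392 and 25358997, and repeat subfamilies took 17.2% and 20.1% of the counts with DMSO against 22.1% and 24.9% with MG132. Levels are given in CPM, which are counts scaled to a common library total, always replicate 1 before replicate 2, and differences as log2 fold changes with their standard error from edgeR's quasi-likelihood test. Adjusted p values are Benjamini-Hochberg values over all genes or over all repeat subfamilies, and a call means an adjusted p under 0.05. Nothing in the labels says that the 2 libraries of a group came from separate cultures or matings, so p values cover the spread between libraries, part or all of which may be technical. A CPM is a share of its library, so fewer cells of a type and less RNA per cell cannot be told apart, nor can a fall of 1 transcript and a rise of the rest. All 10 markers of cleavage-stage embryos fixed for the check (among them Pou5f1, Dppa3, Tead4 and Tfap2c) were detected in each of the 4 libraries, at a summed 21295 and 20443 CPM with DMSO and 10750 and 15421 CPM with MG132.

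MG132 was accompanied by more lower than higher transcripts. Of 22520 genes tested, 689 (3.06%) were higher and 974 (4.33%) lower with MG132, together 1663 or 7.38%, and 1650 of these differed at least 2-fold. The libraries of the 2 groups did not overlap in any of the 1663, which also held for 54.9% of all genes tested. The median log2 fold change over all genes tested was 0.00, and over the 6220 genes with a mean of at least 10 CPM it was -0.10. Of these 6220 genes 484 were higher and 743 lower, a larger share than of all genes tested. The counts of called list members below are to be read beside both shares. With 1 library left out, 766 genes were called without DMSO replicate 1, 581 without DMSO replicate 2, 810 without MG132 replicate 1 and 1050 without MG132 replicate 2, and 370 of the 1663 were called in all 4 cases. Counts of list members with 1 library left out are given below in the same order of libraries. Below, a gene described as higher or lower was called in all 4 cases unless the libraries without which its call was lost are named.

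Chaperone genes of the heat shock response changed mainly upward where they were called. The list of 45 tested chaperone genes held 9 that rose, 2 that fell and a median log2 fold change of 0.29, against 0.00 over all genes; the median was -0.0041 without MG132 replicate 2, and the rising members numbered 7, 4, 7 and 9 with 1 library left out. The members that rose were cytosolic HSP70 genes and their partners, the mitochondrial chaperonin pair, and Ahsa2 of the HSP90 co-chaperones. Because the upstream sequences of these genes are where heat shock factor 1 binds in stressed cells, those of 4 members are shown first, 5′ to 3′ on the strand of the gene, from RefSeq on GRCm38.p6 (the mm10 build). Capitals mark GAANNTTC or its other-strand form TTCNNGAA, a pair of inverted units of the heat shock element; overlapping matches run together. The first pair of sequences covers 250 bases up to the base before the gene's start, chr17:34972157-34972406 for Hspa1a and chr17:34959239-34959488 for Hspa1b, both on the minus strand; the other sequences are 30 bases around the match, chr5:149636351-149636380 on the minus strand for Hsph1 and chr1:55088051-55088080 on the plus strand for Hspe1.

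Hspa1a: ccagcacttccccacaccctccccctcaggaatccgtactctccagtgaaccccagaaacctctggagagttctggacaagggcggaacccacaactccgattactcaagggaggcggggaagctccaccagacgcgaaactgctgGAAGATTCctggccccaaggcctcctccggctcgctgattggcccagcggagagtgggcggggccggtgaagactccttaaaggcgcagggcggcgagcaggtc
Hspa1b: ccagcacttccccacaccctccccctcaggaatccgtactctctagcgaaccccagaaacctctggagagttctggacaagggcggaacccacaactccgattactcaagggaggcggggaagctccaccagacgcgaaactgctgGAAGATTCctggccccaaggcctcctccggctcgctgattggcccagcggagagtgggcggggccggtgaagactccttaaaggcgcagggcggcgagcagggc
Hsph1: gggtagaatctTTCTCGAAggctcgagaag
Hspe1: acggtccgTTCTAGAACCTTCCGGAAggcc

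The windows of Hspa1a and Hspa1b were identical at 247 of 250 bases (98.8%) and held the match at the same place, 104 bases before the start. Distances are counted from the RefSeq start, which can differ from the GENCODE start of the gene positions given below. Hsph1 held the match 33 bases before its start, in a stretch that GENCODE places in an exon of Hsph1 itself. Hspe1 had matches at 89, 84 and 79 bases before its start, in a stretch that GENCODE also places in an exon of its divergent neighbour Hspd1. Only the 250 bases before the start were searched. There, 12.8% of 32851 RefSeq windows and 14.5% of 27025 genes held GAANNTTC on either strand. So did 14 of 38 tested heat shock genes with a window (36.8%). These 14 included 6 of the 9 that rose (Hspa1a, Hspa1b, Hsph1, Dnaja4, Hspd1 and Hspe1) and Cct5, the 1 lower member with a window. The form with a further inverted unit directly behind it, as in a full heat shock element, was in 0.514% of genes and in 3 of the 38, Dnajb6, Hspd1 and Hspe1, of which the last pair rose. These matches are descriptions of letters, not of binding.

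Hspa1a (chr17:34969190-34972156) and Hspa1b (chr17:34956436-34959238) encode the stress-inducible cytosolic HSP70, a chaperone that holds unfolded proteins. Hspa1a stood at 0.385 and 0.692 CPM with DMSO and 49.3 and 48.3 CPM with MG132 (log2 fold change 6.50 ± 0.51, adjusted p = 0.00286). Hspa1b stood at 0.385 and 0.231 CPM with DMSO and 62.5 and 29.6 CPM with MG132 (log2 fold change 7.20 ± 0.86, adjusted p = 0.00472). Both genes were near the lower end of detection in both DMSO libraries and well above it in both MG132 libraries. Their transcripts are nearly identical and the counter's treatment of reads with several positions is not given, so the split between them is uncertain. Dnajb1, the HSP40 partner that delivers substrates to HSP70 (chr8:83608193-83612653), rose from 26.2 and 31.3 CPM to 351 and 750.4 CPM (log2 fold change 4.26 ± 0.56, adjusted p = 0.00579). Hspe1, the lid of the mitochondrial chaperonin (chr1:55088132-55091307), rose from 73.3 and 55.9 CPM to 809 and 688 CPM (log2 fold change 3.53 ± 0.38, adjusted p = 0.00354). For these genes the lower MG132 library exceeded the higher DMSO library several times over.

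Other chaperone genes rose with less support. Hsph1, a nucleotide exchange factor of HSP70, was at 111 and 70.2 CPM with DMSO and 446 and 402 CPM with MG132 (2.23 ± 0.40, adjusted p = 0.0159), and its relative Hspa4l was at 3.19 and 1.58 CPM and 21.6 and 14.8 CPM (2.93 ± 0.53, adjusted p = 0.0154); both calls were lost without DMSO replicate 2. Hspd1, the barrel of the mitochondrial chaperonin, was at 50.3 and 61.9 CPM and 148 and 247 CPM (1.82 ± 0.32), a call lost without DMSO replicate 1, DMSO replicate 2 or MG132 replicate 2. Dnaja4, another HSP40, and Ahsa2, from the family of HSP90 activators, had log2 fold changes of 4.41 ± 0.95 and 1.79 ± 0.31, calls lost without DMSO replicate 1, DMSO replicate 2 or MG132 replicate 1. The 2 members that fell, Cct4 (-1.26 ± 0.25) and Cct5 (-1.15 ± 0.26), are subunits of the chaperonin that folds actin and tubulin; the call of Cct4 was lost without DMSO replicate 1, DMSO replicate 2 or MG132 replicate 1, and that of Cct5 without any 1 of the 4 libraries. The summed level of the whole list was 11552 and 10626 CPM with DMSO and 11312 and 14470 CPM with MG132.

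**Figure D1:**
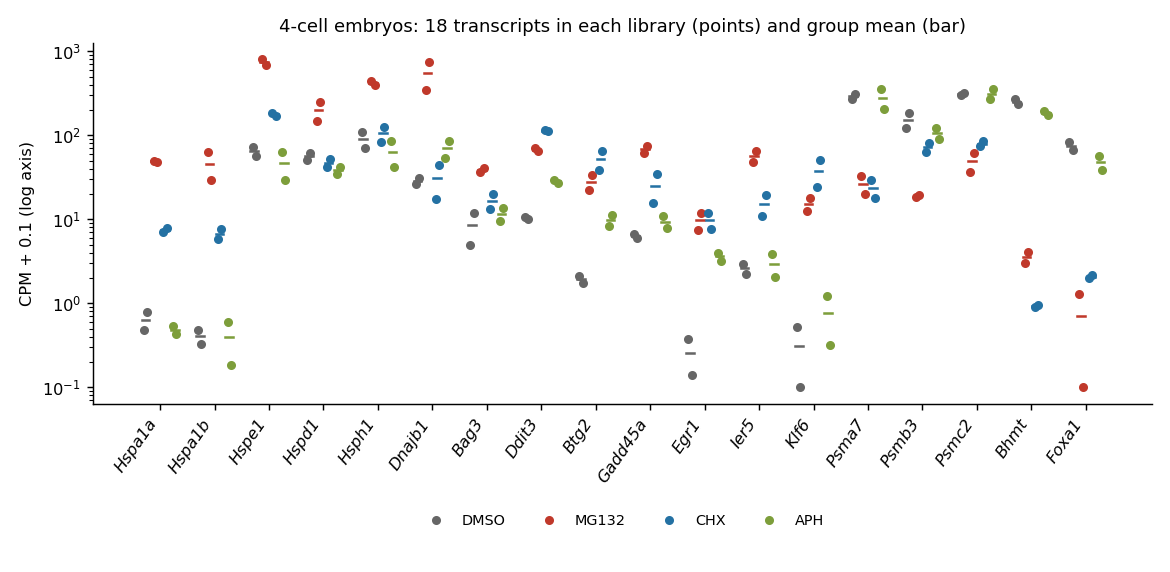
Level of 18 transcripts in each 4-cell library, as CPM plus 0.1 on a log axis. Points are libraries, short bars are means of the 2 libraries of a group, and colours mark DMSO, MG132, CHX and APH. Both MG132 points lie above both DMSO points for the heat shock, p53-target and immediate-early genes on the left, and below them for Psma7, Psmb3, Psmc2, Bhmt and Foxa1 on the right.

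The proteasome genes that passed the test were lower with MG132, with 1 exception, Psme4. Of 51 tested genes of the complex, its activators and its assembly chaperones, 26 were lower and 1 higher, with a median log2 fold change of -1.36 and 46 of 51 fitted values below 0. Their summed level was 11897 and 11884 CPM with DMSO and 4457 and 5182 CPM with MG132, and 11293 and 10811 CPM with aphidicolin. The members that fell numbered 13, 15, 15 and 20 with 1 library left out. By role, 7 of 8 alpha subunits, 6 of 7 beta subunits and 5 of 6 ATPases of the cap fell, against 3 of 13 non-ATPase cap subunits, 3 of 8 assembly chaperones and 1 of 4 immunoproteasome and thymoproteasome subunits; with 1 library left out, 4, 5, 5 and 6 alpha subunits, 4, 3, 5 and 4 beta subunits, 3, 4, 3 and 4 ATPases and 0, 0, 0 and 2 non-ATPases fell. The median log2 fold changes were -1.58 for the alpha subunits, -1.46 for the beta subunits, -1.96 for the ATPases and -0.72 for the non-ATPases.

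Among the alpha subunits, which form the gated outer rings, Psma7 (chr2:180036374-180042433) was at 273 and 309 CPM with DMSO and 32.5 and 20.1 CPM with MG132 (log2 fold change -3.47 ± 0.40, adjusted p = 0.00411). Psma6 was at 1109 and 1144 CPM and 313 and 448 CPM (log2 fold change -1.57 ± 0.25, adjusted p = 0.0112). Psma2 was at 843 and 723 CPM and 257 and 259 CPM (log2 fold change -1.60 ± 0.24, adjusted p = 0.00900). In each of the 3 genes the MG132 libraries lay at less than 1 in 2 of either DMSO library. Psma5 fell by 1.83 on the log2 scale, and Psma1 (-1.43 ± 0.25, lost without DMSO replicate 1 or MG132 replicate 1) and Psma4 (-1.47 ± 0.37, lost without DMSO replicate 1, DMSO replicate 2 or MG132 replicate 2) were called with less support.

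Of the beta subunits, Psmb6, which carries the caspase-like active site, was at 164 and 183 CPM with DMSO and 36.7 and 26.4 CPM with MG132 (log2 fold change -2.46 ± 0.34, adjusted p = 0.00722). Psmb3, a structural subunit, was at 122 and 186 CPM and 18.1 and 19.3 CPM (log2 fold change -3.04 ± 0.32, adjusted p = 0.00348). Psmb5, which carries the chymotrypsin-like site that MG132 occupies, was at 67.3 and 80.1 CPM and 35.0 and 46.9 CPM, lower in both MG132 libraries but not called (-0.85 ± 0.30, adjusted p = 0.122; 0.0356 by DESeq2). Psmb2 fell (-1.62 ± 0.25), and Psmb7, with the trypsin-like site (-1.30 ± 0.23, lost without DMSO replicate 1, DMSO replicate 2 or MG132 replicate 2), and Psmb4 (-1.46 ± 0.26, lost without DMSO replicate 2 or MG132 replicate 1) were also lower. The immunoproteasome subunit Psmb10 was at 15.2 and 34.0 CPM with DMSO and 2.64 and 0.0846 CPM with MG132 (-4.13 ± 1.01), a call lost without DMSO replicate 2.

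The cap ATPases Psmc2, Psmc5 and Psmc6 fell with each of the 4 libraries left out. Psmc2 was at 306 and 319.9 CPM with DMSO and 36.8 and 62.0 CPM with MG132 (log2 fold change -2.66 ± 0.31, adjusted p = 0.00411). Psmc6 was at 396 and 328 CPM and 75.4 and 72.4 CPM (log2 fold change -2.29 ± 0.24, adjusted p = 0.00307). Psmc5 was at 157 and 151 CPM and 36.0 and 38.9 CPM (log2 fold change -2.04 ± 0.27, adjusted p = 0.00620). Psmc1 (-1.88 ± 0.36) lost its call without DMSO replicate 1 or MG132 replicate 1, and Psmc4 (-1.46 ± 0.30) without any 1 of the 4 libraries. Of the non-ATPase subunits, the deubiquitinase Psmd14 (-1.29 ± 0.26) and its structural partner Psmd7 (-1.36 ± 0.32) lost their calls without DMSO replicate 1, DMSO replicate 2 or MG132 replicate 1, and Sem1 (-1.63 ± 0.36) without any 1 of the 4 libraries. The scaffold Psmd1 (-0.37 ± 0.25, adjusted p = 0.393) and Psmd12 (-0.73 ± 0.33, adjusted p = 0.217) were not called.

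Assembly factors and activators were mixed. Psmg3, part of a chaperone of the alpha ring, was at 36.9 and 58.9 CPM with DMSO and 2.46 and 4.31 CPM with MG132 (log2 fold change -3.82 ± 0.44, adjusted p = 0.00411). Pomp, which matures the core, fell (-1.55 ± 0.26, lost without DMSO replicate 1 or MG132 replicate 1), as did Psmd10, a chaperone of the cap (-2.01 ± 0.48, lost without any 1 of the 4 libraries). Psme4, the PA200 activator that caps the core in place of the 19S particle and is known from the testis, was the member that rose, at 143 and 120.2 CPM with DMSO and 285 and 349.6 CPM with MG132 (1.27 ± 0.27, lost without any 1 of the 4 libraries). Psme1, a subunit of the interferon-inducible PA28 activator, was lower (-2.62 ± 0.52, lost without DMSO replicate 1 or MG132 replicate 1).

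The NRF1 axis, which raises these subunits in other inhibited cells, had 1 call, upward, among 10 tested genes. Nfe2l1 itself was at 10.1 and 10.5 CPM with DMSO and 22.4 and 14.3 CPM with MG132 (0.84 ± 0.48, adjusted p = 0.316). Ddi2, the protease that activates NRF1, was at 44.7 and 49.6 CPM and 53.9 and 46.1 CPM (0.084 ± 0.27, adjusted p = 0.898), and the related factor Nfe2l2 was not called (0.49 ± 0.84, adjusted p = 0.768). Mafk, a small MAF partner of both factors, rose (2.37 ± 0.43, lost without DMSO replicate 1, DMSO replicate 2 or MG132 replicate 1). NRF1 acts through antioxidant response elements, with the core TGACNNNGC. Of 22 lower proteasome genes with a RefSeq window, 2 held that core on either strand, against 11.5% of 27025 genes; both matches are shown 5′ to 3′ on the gene's strand with the core in capitals, at chr11:70525338-70525356 for Psmb6, 9 bases before the start, and at chr14:45329587-45329615 for Psmc6, 227 bases before it, both on GRCm38.p6. A window without the core says only that these letters are not in it.

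Psmb6: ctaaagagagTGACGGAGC
Psmc6: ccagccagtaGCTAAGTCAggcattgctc

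**Figure D2:**
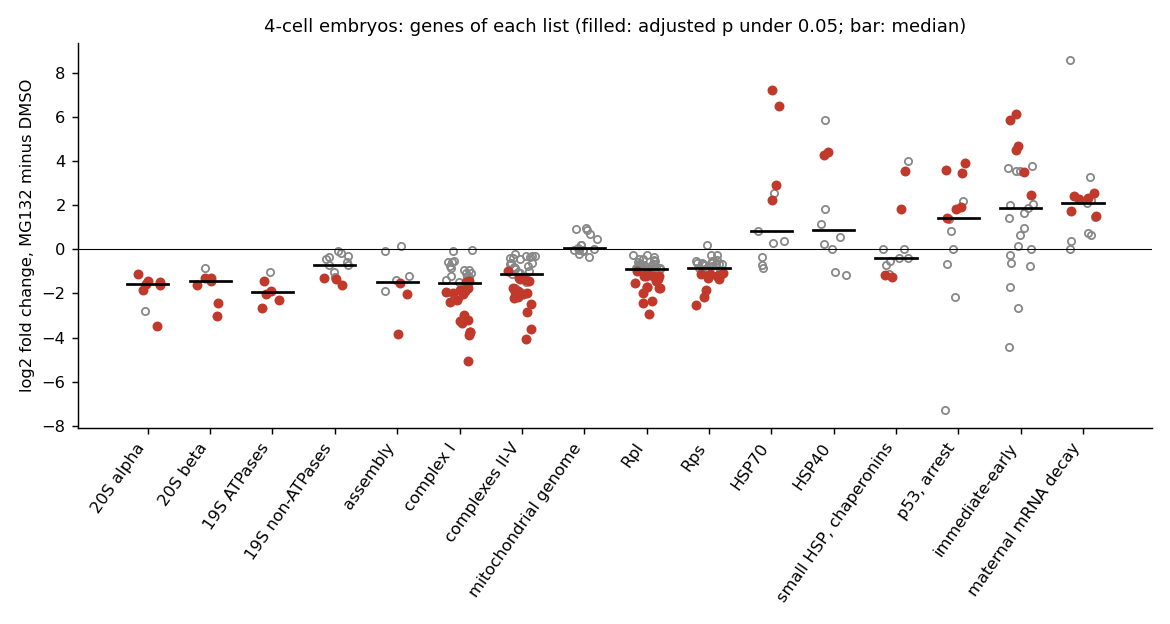
Log2 fold change (MG132 minus DMSO at 4 cells) of each tested gene of 16 gene groups. Filled points have an adjusted p under 0.05, open points do not, and black bars are medians. The 20S alpha and beta subunits and the 19S ATPases centre at -1.58, -1.46 and -1.96, complex I and complexes II to V at -1.55 and -1.11, and the 15 transcripts of the mitochondrial genome at 0.08.

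Ubiquitin and aggregate-clearance genes moved in both directions, with 4 higher (0, 1, 0 and 1 with 1 library left out) and 5 lower (1, 1, 2 and 4 with 1 library left out) of 33 tested. Ubqln1, a shuttle that brings ubiquitinated proteins to the proteasome, was at 32.9 and 47.6 CPM with DMSO and 109 and 109 CPM with MG132 (log2 fold change 1.44 ± 0.27, adjusted p = 0.0177), a call lost without any 1 of the 4 libraries. Its relative Ubqln2 (2.77 ± 0.67, lost without DMSO replicate 1, DMSO replicate 2 or MG132 replicate 1) and Bag3, which routes HSP70 clients to autophagy (2.20 ± 0.49, lost without DMSO replicate 1, MG132 replicate 1 or MG132 replicate 2), were also called higher. Ufd1, an adaptor of the p97 segregase, fell from 93.1 and 85.1 CPM to 15.9 and 19.8 CPM (log2 fold change -2.32 ± 0.29, adjusted p = 0.00513). The deubiquitinases bound to the proteasome, Usp14 (-1.27 ± 0.26, lost without DMSO replicate 1, DMSO replicate 2 or MG132 replicate 2) and Uchl5 (-1.40 ± 0.27, lost without any 1 of the 4 libraries), were lower. The polyubiquitin gene Ubb (0.96 ± 0.34, adjusted p = 0.127) and the aggregate receptor Sqstm1 (-0.53 ± 0.67, adjusted p = 0.670) were not called.

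In the integrated stress and unfolded protein response, 5 of 58 tested genes were higher (1, 1, 4 and 3 with 1 library left out) and 2 lower (0, 0, 0 and 0 with 1 library left out). Over all genes tested, 3.06% were higher and 4.33% lower. Of 19 chaperones and degradation factors of the endoplasmic reticulum 0 were called by edgeR, with 4 (upward) and 1 (downward) at an unadjusted p under 0.05 and 3 higher by DESeq2. Ddit3 (CHOP, a stress transcription factor) was at 10.6 and 9.92 CPM with DMSO and 70.2 and 64.5 CPM with MG132 (log2 fold change 2.71 ± 0.26, adjusted p = 0.00286). Atf4, its upstream factor, was at 66.1 and 82.2 CPM and 128 and 141 CPM (0.86 ± 0.35, adjusted p = 0.172), and the endoplasmic reticulum chaperone Hspa5 at 206 and 183 CPM and 329 and 376 CPM (0.86 ± 0.25, adjusted p = 0.0758). The MG132 libraries lay above the DMSO libraries for all 3 genes, and Ddit3 alone of them was called. The cystine transporter Slc7a11 (2.57 ± 0.60) and the IRE1 sensor Ern1 (2.17 ± 0.53) were higher, calls lost without DMSO replicate 1, DMSO replicate 2 or MG132 replicate 1. The amino acid transporter Slc7a5 (1.88 ± 0.43) and the mitochondrial folate enzyme Mthfd2 (1.47 ± 0.35) were higher and Nupr1 (-2.17 ± 0.55) and Cth (-1.34 ± 0.26) lower, each call lost without any 1 of the 4 libraries. Among 28 antioxidant genes 1 was higher and 3 lower: the peroxiredoxin Prdx1 fell from 658 and 537 CPM to 105 and 154 CPM (log2 fold change -2.21 ± 0.28, adjusted p = 0.00527), and the glutathione peroxidase Gpx1 fell too (-1.84 ± 0.29).

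The list named p53 targets here holds genes of arrest, apoptosis, feedback and repair. Its members that passed the test were higher, but p53 itself and its classical targets Cdkn1a and Mdm2 were not called. Of 32 tested, 9 were higher and 0 lower by edgeR, 12 and 5 at an unadjusted p under 0.05 and 12 and 4 by DESeq2, with a median of 0.48. The higher members numbered 3, 5, 8 and 4 with 1 library left out. Btg2, an antiproliferative factor, was at 1.997 and 1.65 CPM with DMSO and 22.2 and 33.4 CPM with MG132 (log2 fold change 3.93 ± 0.45, adjusted p = 0.00411). Gadd45a, a DNA damage and stress gene, was at 6.52 and 5.88 CPM and 61.5 and 74.5 CPM (log2 fold change 3.45 ± 0.45, adjusted p = 0.00577). Rrm2b, a ribonucleotide reductase subunit for DNA repair, was at 16.3 and 12.2 CPM and 119.7 and 64.4 CPM (log2 fold change 2.69 ± 0.37, adjusted p = 0.00670). In these 3 genes both MG132 libraries exceeded both DMSO libraries several times. Gadd45g (3.61 ± 0.78, lost without DMSO replicate 1, DMSO replicate 2 or MG132 replicate 2), Gadd45b (1.93 ± 0.40, lost without DMSO replicate 1 or MG132 replicate 2) and the p53 antagonist Mdm4 (1.38 ± 0.33, lost without DMSO replicate 1, MG132 replicate 1 or MG132 replicate 2) were higher with less support. Cdkn1a, the cell cycle inhibitor p21, was at 18.6 and 38.0 CPM and 15.9 and 41.3 CPM, with overlapping groups (0.012 ± 0.50, adjusted p = 1), and Mdm2 (0.28 ± 0.28, adjusted p = 0.568) and Trp53 (-0.32 ± 0.58, adjusted p = 0.792) were not called.

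Immediate-early genes, which respond to growth factors and stress within minutes in other cells, had 6 of 25 tested members higher, 0 lower (11 and 0 both at an unadjusted p under 0.05 and by DESeq2) and a median of 1.88 (1.04 without MG132 replicate 2); the higher members numbered 6, 3, 5 and 4 with 1 library left out. Egr1, a zinc finger factor, was at 0.280 and 0.0384 CPM with DMSO and 7.47 and 11.7 CPM with MG132 (log2 fold change 5.85 ± 0.89, adjusted p = 0.00927). Ier5, a gene also driven by heat shock factor 1, was at 2.87 and 2.15 CPM and 48.0 and 64.7 CPM (log2 fold change 4.48 ± 0.52, adjusted p = 0.00411). Klf6, another zinc finger factor, was at 0.420 and 0 CPM and 12.6 and 17.9 CPM (log2 fold change 6.12 ± 1.19, adjusted p = 0.0198). Egr1 and Klf6 were close to 0 with DMSO, Ier5 was low but detected, and all 3 stood well above DMSO in both MG132 libraries. The phosphatase Dusp1 rose (4.68 ± 1.11, lost without DMSO replicate 2 or MG132 replicate 2), as did its relative Dusp5 (3.52 ± 0.85, lost without any 1 of the 4 libraries).

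All nuclear genes of oxidative phosphorylation that passed the test were lower, while none of the transcripts of the mitochondrial genome was called. Of 76 tested nuclear genes 36 were lower and 0 higher by edgeR (56 and 0 at an unadjusted p under 0.05, 49 and 0 by DESeq2), the fitted value was below 0 in all 76, and the median log2 fold change was -1.41. Their summed level was 13073 and 12810 CPM with DMSO and 6484 and 6253 CPM with MG132. The lower members numbered 20, 22, 26 and 21 with 1 library left out. Complex I, which takes electrons from NADH, had 18 of 37 members lower (median -1.55), and complexes II to V had 18 of 39 (median -1.11). Of the 15 transcripts of the mitochondrial genome, which encode partner subunits and the mitochondrial rRNAs, 0 were called by edgeR; at an unadjusted p under 0.05 4 were higher and 0 lower, and 2 were higher by DESeq2. Their median was 0.08 (-0.0321 without DMSO replicate 2 and -0.0123 without MG132 replicate 1), and the summed level was 138070 and 100330 CPM with DMSO and 128540 and 123610 CPM with MG132.

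Ndufa8 of complex I was at 31.8 and 50.2 CPM with DMSO and 1.20 and 1.23 CPM with MG132 (log2 fold change -5.08 ± 0.57, adjusted p = 0.00392). Sdhb, the iron-sulfur subunit of complex II, was at 31.2 and 29.0 CPM and 1.08 and 2.54 CPM (log2 fold change -4.07 ± 0.60, adjusted p = 0.00817). Uqcrb of complex III was at 335 and 262 CPM and 33.9 and 14.97 CPM (log2 fold change -3.61 ± 0.53, adjusted p = 0.00817). In each of the 3 both MG132 libraries lay far below both DMSO libraries. Ndufs5 (-3.74 ± 0.45), Ndufs7 (-3.33 ± 0.44), Uqcr11 (-2.83 ± 0.44) and Uqcrc2 (-2.50 ± 0.29) fell as well, and Atp5e of the ATP synthase was lower (-2.22 ± 0.45, lost without DMSO replicate 2, MG132 replicate 1 or MG132 replicate 2).

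Cytosolic ribosomal protein transcripts were lower in 27 of 80 and higher in 0 by edgeR (60 and 0 at an unadjusted p under 0.05, 50 and 0 by DESeq2), with a median of -0.87 and 79 of 80 fitted values below 0. Their summed level was 97967 and 91666 CPM with DMSO and 50417 and 52858 CPM with MG132, and the aphidicolin libraries, 87903 and 58671 CPM, differed widely from each other. The lower members numbered 13, 13, 13 and 20 with 1 library left out. Rpl3, beside the peptidyl transferase centre, was at 425 and 436 CPM with DMSO and 64.8 and 46.3 CPM with MG132 (log2 fold change -2.96 ± 0.28, adjusted p = 0.00286). Rpl5, which binds 5S rRNA, was at 1000.3 and 989 CPM and 194 and 192 CPM (log2 fold change -2.37 ± 0.24, adjusted p = 0.00286). In each of the 2 genes both MG132 libraries lay far below both DMSO libraries, and close to each other. Ribosomal protein genes have many retrocopies, so single values are uncertain. Of 30 translation factors 7 were lower and 0 higher by edgeR, with 12 and 2 at an unadjusted p under 0.05 and 10 and 1 by DESeq2 (median -0.56; the lower members numbered 4, 5, 5 and 6 with 1 library left out), among them Eif3d (-2.49 ± 0.36), Eif2b1 of the eIF2 exchange factor (-2.02 ± 0.27) and Eif2s1, the eIF2 subunit that stress kinases phosphorylate (-1.67 ± 0.30, lost without DMSO replicate 2). Of 77 ribosome biogenesis genes 2 were higher and 8 lower (2, 1, 1 and 5 with 1 library left out): Gnl3, a nucleolar GTPase, fell from 902 and 851 CPM to 302 and 297 CPM (log2 fold change -1.55 ± 0.22, adjusted p = 0.00732), Utp14b rose (2.29 ± 0.30), and Npm1 was lower in both MG132 libraries but not called (-0.97 ± 0.25, adjusted p = 0.0521).

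Cell cycle genes were called at shares near that of all genes tested, many of which had few counts. Of 71 mitosis and spindle genes 3 were higher and 3 lower (8.45% together, median -0.14). Of 56 replication genes 1 was higher and 5 lower (10.7% together, median -0.38), against 7.38% of all genes. Among genes with at least 5 CPM in 2 libraries, 1192 of 10792 were higher and 1356 lower. In that fit 6 of 70 mitosis genes were higher and 6 lower, and 3 of 56 replication genes higher and 10 lower. With 1 library left out, at most 1 mitosis gene was called in each direction, and 2, 1, 2 and 3 replication genes were lower. Cenpf, a kinetochore protein, rose from 45.5 and 41.6 CPM to 143 and 172 CPM (log2 fold change 1.85 ± 0.24, adjusted p = 0.00529). Tk1, the thymidine kinase of S phase, fell from 62.7 and 66.6 CPM to 9.10 and 16.3 CPM (log2 fold change -2.35 ± 0.35, adjusted p = 0.00900). The cyclin Ccnb1, a protein that the proteasome destroys at anaphase, was at 2066 and 2068 CPM and 910.3 and 1577 CPM (-0.73 ± 0.30, adjusted p = 0.179), and Cdc20, which marks it for destruction, was not called (-0.68 ± 0.45, adjusted p = 0.382). Of 37 RNA processing genes 4 were higher and 3 lower, and 2, 0, 2 and 1 were higher with 1 library left out; the splicing regulator Tra2b rose (1.59 ± 0.29, lost without DMSO replicate 2).

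The oocyte transcripts that passed the test were nearly all higher with MG132. Of 74 tested oocyte and maternal-effect genes 16 were higher and 1 lower, with a median of 1.42; the higher members numbered 6, 5, 7 and 19 with 1 library left out. The summed level of the list, which the abundant members set, ran the other way, at 16830 and 15121 CPM with DMSO and 11596 and 13257 CPM with MG132. Among the 15 genes of mRNA storage and decay 6 were higher, with a median of 2.08. Cnot6l, a deadenylase that removes poly(A) tails from maternal mRNA, was at 21.8 and 19.2 CPM with DMSO and 123 and 79.3 CPM with MG132 (log2 fold change 2.30 ± 0.32, adjusted p = 0.00722). Dazl, an RNA-binding protein that activates maternal mRNA, was at 15.3 and 13.1 CPM and 81.9 and 55.6 CPM (log2 fold change 2.28 ± 0.33, adjusted p = 0.00784). Nlrp4f, of a family of oocyte cortex proteins, was at 10.02 and 12.7 CPM and 88.7 and 49.4 CPM (log2 fold change 2.60 ± 0.37, adjusted p = 0.00732). For these 3 the lower MG132 library was above both DMSO libraries and MG132 replicate 1 was the higher of its pair. Btg4, which recruits the deadenylase, was higher (2.55 ± 0.44, lost without DMSO replicate 2), as were the growth factor Bmp15 (3.07 ± 0.60, lost without DMSO replicate 1 or MG132 replicate 1), the kinase Wee2 (2.70 ± 0.51, lost without DMSO replicate 2 or MG132 replicate 1) and the spindle protein Spin1 (2.000 ± 0.39, lost without DMSO replicate 1, DMSO replicate 2 or MG132 replicate 1). Gdf9 (1.96 ± 0.56, adjusted p = 0.0714), Nlrp5 (1.58 ± 0.67, adjusted p = 0.195) and Zp3 (-0.15 ± 0.30, adjusted p = 0.817) were not called.

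Genes of the 2-cell stage divided by member. Their summed level was 7966 and 7736 CPM with DMSO and 4089 and 4463 CPM with MG132, and so ran against the list median given next. Of 54 tested 8 were higher and 5 lower (median 0.89), the higher members numbering 1, 0, 4 and 6 with 1 library left out. The lower members were abundant in vehicle 4-cell embryos: Obox6, a homeobox gene, was at 1238 and 1227 CPM with DMSO and 241 and 248 CPM with MG132 (log2 fold change -2.33 ± 0.23, adjusted p = 0.00286), and Trim43a, from a family of ubiquitin ligases, at 1327 and 1236 CPM and 215 and 204 CPM (log2 fold change -2.61 ± 0.23, adjusted p = 0.00286). Trim43b (-2.14 ± 0.22) and Trim43c (-1.73 ± 0.23) fell as well; the 3 are close paralogs, so the split between them is uncertain. Obox3, at 8.79 and 4.27 CPM with DMSO and 36.5 and 33.5 CPM with MG132, was higher (2.42 ± 0.48, lost without DMSO replicate 2 or MG132 replicate 1). Of the Zscan4 cluster, the usual marker of the 2-cell program, 0 of 6 were called by edgeR or DESeq2, and 1 was higher at an unadjusted p under 0.05; Zscan4d was at 10.1 and 3.38 CPM and 18.04 and 15.7 CPM (1.32 ± 0.55, adjusted p = 0.184) and Zfp352 at 18.1 and 7.31 CPM and 57.8 and 73.3 CPM (2.36 ± 0.79, adjusted p = 0.108), higher in both MG132 libraries without a call.

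Called pluripotency genes were mostly lower, while the trophectoderm and primitive endoderm list had few calls. Among genes with at least 5 CPM in 2 libraries, 6 of 21 pluripotency genes were lower and 1 higher. In that fit 2 of 19 trophectoderm and primitive endoderm genes were lower and 1 higher. Of all 10792 genes in it 1356 were lower and 1192 higher, so the share lower in the trophectoderm and primitive endoderm list was no larger than that of all genes. Among 30 pluripotency genes 6 were lower and 1 higher, against 4.33% and 3.06% of all genes tested. Prdm14, a chromatin regulator of pluripotent cells, was at 3.64 and 5.23 CPM with DMSO and at 0 in both MG132 libraries, at least 82.4-fold lower at a floor of 3 counts over the group (adjusted p = 0.0110). Zfp42 (REX1) fell from 22.3 and 28.3 CPM to 1.17 and 2.41 CPM (log2 fold change -3.83 ± 0.49, adjusted p = 0.00529). Sox21, which is expressed unevenly among 4-cell blastomeres, fell from 21.2 and 14.6 CPM to 0.154 and 0.0846 CPM (log2 fold change -7.14 ± 0.61, adjusted p = 0.00286). The member that rose was Lin28b, an inhibitor of let-7 maturation, at 7.39 and 7.34 CPM and 50.1 and 45.1 CPM (log2 fold change 2.69 ± 0.32, adjusted p = 0.00451). Nanog (-2.54 ± 1.10, adjusted p = 0.199), Pou5f1 (-0.68 ± 1.13, adjusted p = 0.763) and Sox2 (0.84 ± 1.52, adjusted p = 0.786) were not called. Of 31 trophectoderm and primitive endoderm genes 1 was higher and 3 lower (1 lower without any 1 of the 4 libraries): Hand1, a trophoblast factor, was at 7.39 and 6.61 CPM with DMSO and 0 in both MG132 libraries (at least 131-fold lower, adjusted p = 0.00387), and Tead4 was lower (-1.84 ± 0.32, lost without any 1 of the 4 libraries).

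Outside these lists, the largest changes among genes whose higher group averaged 10 CPM or more included genes with known developmental roles. Bhmt, a methyltransferase that uses betaine and is expressed in the preimplantation embryo, was at 268 and 238 CPM with DMSO and 2.95 and 3.98 CPM with MG132 (log2 fold change -6.19 ± 0.31, adjusted p = 0.000184). Foxa1, a pioneer factor (chr12:57540628-57546916), was at 83.7 and 67.4 CPM and 1.20 and 0 CPM (log2 fold change -6.89 ± 1.07, adjusted p = 0.00995). Hist1h1b, a linker histone gene, was at 14.4 and 12.3 CPM with DMSO and 0 in both MG132 libraries, at least 251-fold lower (adjusted p = 0.00286). Bhmt stayed detected at a low level with MG132, and the other pair stood at or near 0. Replication histone mRNA mostly lacks a poly(A) tail and the labels name polyA RNA, so the level of Hist1h1b covers only its captured part. The mitochondrial carrier Slc25a43 (16.8 and 8.997 CPM with DMSO, 0 with MG132, at least 245-fold lower), the odorant receptor gene Olfr1459 (-9.10 ± 0.63), Tmem37 (-6.31 ± 0.63), Ly6a (-6.17 ± 0.93) and Rdh13 (-5.88 ± 0.75) fell too.

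Of the largest increases, Morc4, from a family of chromatin ATPases (chrX:139821632-139871677), was at 0 in both DMSO libraries and at 10.8 and 14.3 CPM with MG132, at least 223-fold higher at the same floor (adjusted p = 0.00411). Mylip, a ubiquitin ligase for the LDL receptor, rose from 1.61 and 0.192 CPM to 33.4 and 45.8 CPM (log2 fold change 5.44 ± 0.92, adjusted p = 0.0130). Kbtbd7, a substrate adaptor of cullin-3 ligases, rose from 4.38 and 3.04 CPM to 94.2 and 70.7 CPM (log2 fold change 4.47 ± 0.41, adjusted p = 0.00286). Both are parts of the ubiquitin system and stood above DMSO in both MG132 libraries. Tmeff2 (5.07 ± 0.65) and Zfp735 (4.43 ± 0.51) rose as well.

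Few repeat subfamilies were called. Of 1003 tested, 1 (0.0997%) was higher and 7 (0.698%) were lower by edgeR, 0.798% in all, while at an unadjusted p under 0.05 102 were higher and 30 lower; the median log2 fold change was 0.23. The calls numbered 4 without DMSO replicate 1, 5 without DMSO replicate 2, 2 without MG132 replicate 1 and 8 without MG132 replicate 2, and 47 by DESeq2. All 7 lower subfamilies are LTR elements or the internal part of endogenous retroviruses. RLTR45-int was at 2173 and 2343 CPM with DMSO and 171 and 98.4 CPM with MG132 (log2 fold change -4.07 ± 0.32, adjusted p = 0.000559), and its LTR, RLTR45, at 380 and 404 CPM and 98.4 and 111 CPM (-1.90 ± 0.25, lost without MG132 replicate 1). ERVB4_2-I_MM-int was at 193 and 231 CPM and 39.5 and 18.9 CPM (log2 fold change -2.86 ± 0.40, adjusted p = 0.0138). In these the MG132 libraries lay at less than 1 in 3 of either DMSO library. RLTR1B-int (-2.18 ± 0.28, lost without MG132 replicate 1), RLTR13C2 (-2.55 ± 0.36, lost without DMSO replicate 1, MG132 replicate 1 or MG132 replicate 2), RLTR13B1 (-2.46 ± 0.41, lost without DMSO replicate 1, DMSO replicate 2 or MG132 replicate 1) and RLTR13B2 (-2.21 ± 0.34, lost without any 1 of the 4 libraries) were the others. The subfamily that rose, MusHAL1, is a LINE (1.79 ± 0.28, lost without DMSO replicate 1, DMSO replicate 2 or MG132 replicate 1).

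MERVL, the retrovirus whose transcripts peak at the 2-cell stage, was higher in both MG132 libraries without a call: its internal part MERVL-int was at 6987 and 6547 CPM with DMSO and 13275 and 23050 CPM with MG132 (1.42 ± 0.47, adjusted p = 0.270; 0.0341 by DESeq2), and its LTR MT2_Mm at 8122 and 6382 CPM and 15508 and 21543 CPM (1.35 ± 0.37, adjusted p = 0.164). The oocyte-type LTR MTA_Mm was at 1780.4 and 1991 CPM and 6072 and 3321 CPM (1.32 ± 0.32, adjusted p = 0.119). IAPEz-int (0.055 ± 0.39), L1Md_T (0.12 ± 0.34) and the SINE B1_Mm (0.047 ± 0.28) had log2 fold changes within their standard error of 0. Since a read in a repeat can come from a gene that holds it, and multi-mapping is not described, these values are of annotated subfamilies, not of single elements.

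**Figure D3:**
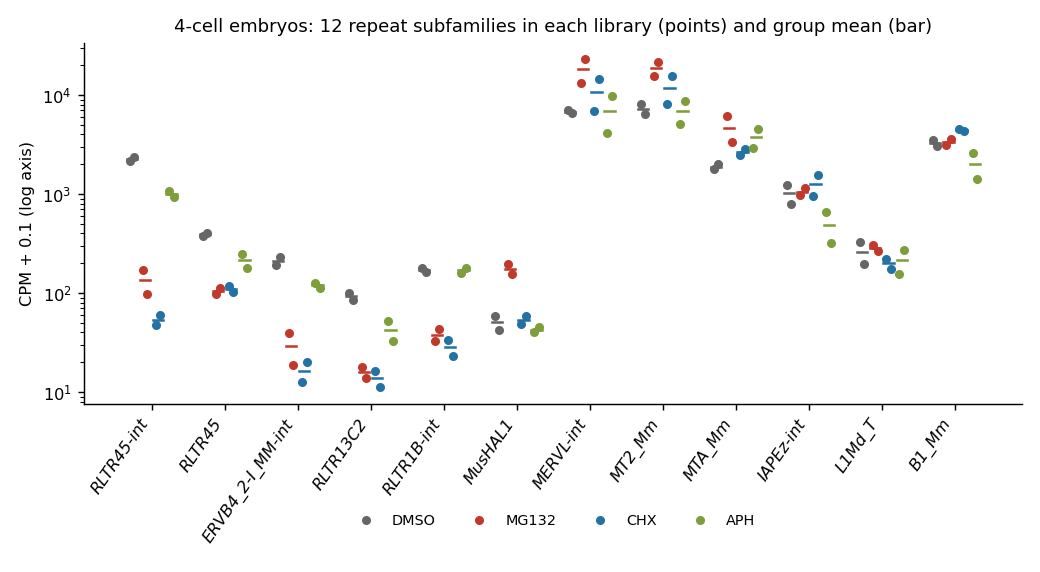
Level of 12 repeat subfamilies in each 4-cell library, as CPM plus 0.1 on a log axis. Points are libraries, short bars are means of the 2 libraries of a group. RLTR45-int, RLTR45, ERVB4_2-I_MM-int, RLTR13C2 and RLTR1B-int lie lower with MG132 than with DMSO, MusHAL1 higher, and the MERVL-int and MT2_Mm points of MG132 lie above those of DMSO without passing the test.

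The next comparison set MG132 against cycloheximide at the same stage, a block of protein degradation against a block of protein synthesis. Of 22520 genes 1257 (5.58%) were higher and 1014 (4.5%) lower with MG132 than with cycloheximide, together 10.1%; the total of 2271 fell to 1004 without cycloheximide replicate 1, 1451 without cycloheximide replicate 2 and 1237 without MG132 replicate 2. The median log2 difference over all genes was -0.20. Of 45 heat shock genes 18 were higher with MG132 and 0 lower, with a median of 0.83 (0.65 without cycloheximide replicate 1). Their summed level was 11312 and 14470 CPM with MG132 and 4040 and 4763 CPM with cycloheximide. With DMSO it was 11552 and 10626 CPM, so the sum with cycloheximide was below DMSO. Dnajb1 was at 351 and 750.4 CPM with MG132 and 17.4 and 44.5 CPM with cycloheximide (4.15 ± 0.55, adjusted p = 0.00418). Hspa1a was at 49.3 and 48.3 CPM and 6.89 and 7.70 CPM (2.74 ± 0.42, adjusted p = 0.00568). Hspe1 was at 809 and 688 CPM and 186 and 169 CPM (2.07 ± 0.36, adjusted p = 0.00997). In all 3 the cycloheximide libraries were below both MG132 libraries, and Hspa1a and Hspe1 stood above their DMSO levels in both drugs.

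Ribosomal protein transcripts were higher with MG132 than with cycloheximide in 48 of 80, at a summed 50417 and 52858 CPM against 20042 and 24753 CPM; the count was 15 without cycloheximide replicate 1. Ribosome biogenesis genes were higher in 33 of 77 and lower in 1 (10 higher without cycloheximide replicate 1 and 21 without MG132 replicate 2), and translation factors higher in 13 of 30 (6 higher without cycloheximide replicate 1). Proteasome genes were not separated as a list, with 5 of 51 higher, 5 lower and a median of -0.02 (0.0232 with library sizes from genes only). Without cycloheximide replicate 1 the calls were 1 higher and 5 lower, without cycloheximide replicate 2 3 higher and 4 lower, and without MG132 replicate 2 1 higher and 3 lower. Their summed levels were 4457 and 5182 CPM with MG132 and 3662 and 4183 CPM with cycloheximide. Psma7 was at 32.5 and 20.1 CPM and 29.1 and 17.9 CPM (0.17 ± 0.37, adjusted p = 0.835), a difference with a standard error too wide to show that the drugs act alike. Psmb3 was lower with MG132 than with cycloheximide (-1.94 ± 0.31, adjusted p = 0.00690). The summed level of the oxidative phosphorylation genes was 6484 and 6253 CPM with MG132 and 7592 and 8481 CPM with cycloheximide. With DMSO it was 13073 and 12810 CPM, so the sums with both drugs were below DMSO. The calls that follow compare MG132 with cycloheximide. Oxidative phosphorylation genes were higher in 5 of 76 and lower in 20, with a median of -0.48 (13 lower without MG132 replicate 1, 11 without MG132 replicate 2, and 1 higher without cycloheximide replicate 1). Stress genes did not all follow the chaperones: Ddit3 was at 70.2 and 64.5 CPM with MG132 and 114 and 112 CPM with cycloheximide (-0.75 ± 0.25, adjusted p = 0.0934; 0.0163 by DESeq2 and 0.041 among genes with at least 5 CPM), Cdkn1a at 15.9 and 41.3 CPM and 150.2 and 198 CPM (-2.61 ± 0.53, adjusted p = 0.0182), and Gadd45g was lower with MG132 (-3.50 ± 0.75, adjusted p = 0.0211), a call lost without cycloheximide replicate 2.

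Of 1003 repeat subfamilies, 16 (1.6%) were higher and 2 (0.199%) lower with MG132 than with cycloheximide, 1.79% together (7 in all without cycloheximide replicate 1). ORR1A1, an LTR of the MaLR group, was at 1698 and 1824 CPM with MG132 and 469 and 511 CPM with cycloheximide (1.84 ± 0.27, adjusted p = 0.00807), and the LINE MusHAL1 at 194 and 157 CPM and 48.2 and 58.4 CPM (1.72 ± 0.28, adjusted p = 0.0155). Both calls were lost without cycloheximide replicate 1, and that of MusHAL1 also without MG132 replicate 1. MERVL-int was at 13275 and 23050 CPM and 6894 and 14369 CPM (adjusted p = 0.568).

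The effect of MG132 was then compared between stages, as the difference at 4 cells minus the difference at 2 cells, which share no library. It differed for 2774 of 26804 genes (10.3%), 1648 upward (6.15%) and 1126 downward (4.2%). The total fell to 1679 without 2-cell DMSO replicate 1, 1717 without 2-cell MG132 replicate 1, 1413 without 2-cell MG132 replicate 2 and 1738 without 4-cell DMSO replicate 2. The median difference over all genes was 0.42, and 0.54 and 0.64 with other scalings (DESeq2 size factors and library sizes from genes only), so directions below are read against that shift. At 2 cells alone MG132 gave 753 higher (2.81%) and 1116 lower (4.16%) genes, 6.97% together.

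Proteasome genes moved in opposite directions at the 2 stages. At 2 cells 18 of 51 were higher with MG132 and 1 lower (median 0.81); at 4 cells 26 were lower; and the difference between stages was called downward in 25 and upward in 1 (Psme4), with a median of -2.28. On a scale common to both stages their summed level was 2023 and 2619 CPM in 2-cell DMSO, 4159 and 5057 CPM in 2-cell MG132, 13044 and 12878 CPM in 4-cell DMSO and 4835 and 5597 CPM in 4-cell MG132. The sums with MG132 were of similar size at both stages, and those of vehicle embryos were several times higher at 4 cells. On the same scale, the sums with cycloheximide were 5450 and 5105 CPM at 2 cells and 3899 and 4355 CPM at 4 cells. They too lay above DMSO at 2 cells and below DMSO at 4 cells. Single genes at 2 cells are given on that scale. Psma7 was at 99.1 and 140.4 CPM with DMSO and 975 and 688 CPM with MG132 at 2 cells, and its difference between stages was -6.27 ± 0.57 (adjusted p = 5.27e-05). Psmb5 was at 0.488 and 0.406 CPM and 1.88 and 2.90 CPM at 2 cells (difference -3.27 ± 0.61, adjusted p = 0.00385). Psmc5 was at 30.7 and 27.7 CPM and 111 and 117 CPM (difference -4.01 ± 0.44, adjusted p = 0.000204). Oxidative phosphorylation genes had 7 of 76 higher at 2 cells, and a downward difference in 29 with a median of -1.62 (18 without 4-cell DMSO replicate 1, and 19 without 4-cell MG132 replicate 2 or without 2-cell MG132 replicate 2).

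The heat shock list differed in both directions, 9 of 47 upward and 10 downward; with 1 of the 8 libraries left out, 5 to 8 were upward and 3 to 9 downward. Hspa1a was at 1.80 and 0.0676 CPM with DMSO and 0.0536 and 0 CPM with MG132 at 2 cells (-5.23 ± 1.68, adjusted p = 0.0786), a difference between stages of 11.71 ± 2.11 (adjusted p = 0.00312) that was not called without 2-cell DMSO replicate 1. Dnajb1 was at 84.2 and 43.1 CPM and 61.6 and 82.1 CPM at 2 cells (difference 4.07 ± 0.68, adjusted p = 0.00202). Hspe1 was at 84.5 and 98.7 CPM and 71.7 and 84.4 CPM (difference 3.75 ± 0.53, adjusted p = 0.000844). The test of the difference placed the change of these 3 genes higher at 4 cells than at 2 cells. They are upward members, while Cct4 (-3.04), Cct5 (-1.80) and Dnajb6 (-1.79) were among the downward ones. The summed level of the list at 2 cells was 4972 and 4578 CPM with DMSO and 8437 and 8419 CPM with MG132. At 4 cells it was 12667 and 11515 CPM with DMSO and 12272 and 15629 CPM with MG132 on the same scale. The p53 targets had 7 of 32 lower at 2 cells and an upward difference in 11; immediate-early genes had 1 of 27 higher and 8 lower at 2 cells and an upward difference in 12, which was 6 without 2-cell DMSO replicate 1 and without either 2-cell MG132 library.

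The 2-cell-stage genes had 35 of 54 lower with MG132 at 2 cells and 3 higher (median -5.49), and the difference between stages was upward in 35 and downward in 1 (median 5.71). Zscan4d was at 206 and 415 CPM with DMSO and 9.92 and 21.3 CPM with MG132 at 2 cells (difference 5.62 ± 0.87, adjusted p = 0.00135), and Obox6 at 35.1 and 23.2 CPM and 0 and 0 CPM (difference 10.30 ± 1.85, adjusted p = 0.00408). The difference of Obox6 is a fitted value that depends on the prior count, since both 2-cell MG132 libraries were at 0. Repeat subfamilies differed in 240 of 1050 (22.9%), 236 of them upward, with 296 (28.2%) lower and 1 (0.0952%) higher with MG132 at 2 cells (28.3% together), against 7 lower and 1 higher at 4 cells (99 differed without 2-cell MG132 replicate 1, and 146 without 2-cell DMSO replicate 2 or without 4-cell DMSO replicate 2); MERVL-int was at 21207 and 13268 CPM and 29.98 and 97.5 CPM at 2 cells (difference 9.49 ± 0.94, adjusted p = 5.02e-05).

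**Figure D4:**
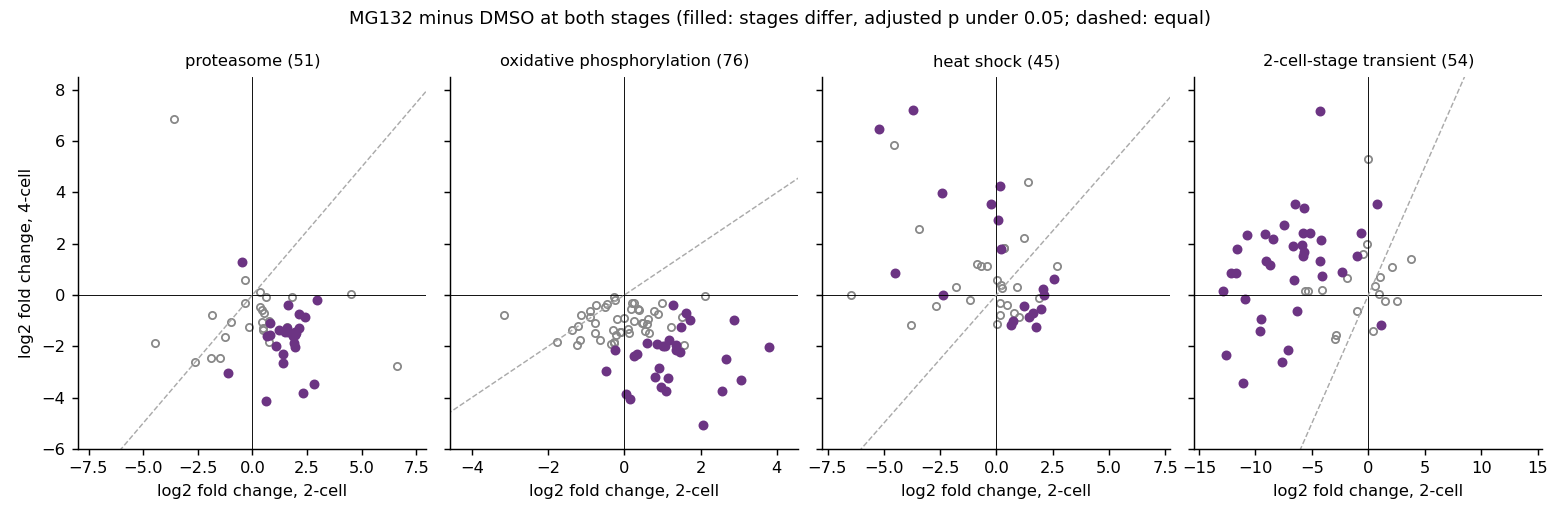
Log2 fold change with MG132 at 2 cells (horizontal axis) and at 4 cells (vertical axis) for the genes of 4 lists. Filled points differ between stages at an adjusted p under 0.05, and the dashed line marks equal changes. Most proteasome genes sit in the lower right, higher at 2 cells and lower at 4, and the 2-cell-stage genes lie far to the left, with a median of -5.49 at 2 cells and 0.89 at 4.

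To place the 4-cell changes on the course of development, genes were sorted by their change from 2-cell DMSO to 4-cell aphidicolin embryos, libraries that are in neither group compared, with at least a 4-fold change and an adjusted p under 0.05. Aphidicolin embryos were used so that the sets share no library with the MG132 and DMSO groups. The aphidicolin libraries did enter the 4-cell fit, and so its filter, scaling and estimate of spread. The sets are therefore not fully independent of the calls. Between aphidicolin and DMSO at 4 cells 0 genes were called by edgeR, with 1845 at an unadjusted p under 0.05 and a smallest adjusted p of 0.441. The 2 aphidicolin libraries differed more from each other (chi-square per row 249) than the 2 DMSO libraries (57.1). The lack of calls therefore cannot show that aphidicolin embryos match vehicle embryos. Of 3631 tested genes that rose along this step, 575 (15.8%) were lower with MG132 and 40 (1.1%) higher, against 4.33% and 3.06% of all genes. Of 3329 tested genes that fell, 311 (9.34%) were higher and 16 (0.481%) lower. A further 1227 genes of the falling set were below the count filter at 4 cells, and members that passed only through the group where they are high had to differ. Without the filter, 646 of the 4556 falling genes (14.2%) were higher and 35 (0.768%) lower, and of the 3633 rising genes 893 (24.6%) were lower and 88 (2.42%) higher, against 4.83% higher and 5.33% lower of all 34105 genes in that fit. With 1 library left out, 8.62%, 7.29%, 7.98% and 10.2% of the rising genes were lower, against 1.88%, 1.57%, 1.96% and 2.21% of all genes, and 3.22%, 2.12%, 2.91% and 6.90% of the falling genes were higher, against 1.06%, 0.66%, 1.18% and 1.82% of all. The rising set held 59.0% of the 974 lower genes, and the falling set 45.1% of the 689 higher genes, where these sets make up 16.1% and 14.8% of all genes tested. In genes with a mean of at least 1 CPM over the 4 libraries the median log2 fold change with MG132 was -0.65 in 3346 rising genes, 1.34 in 2000 falling genes and -0.01 in all 13753. The choice of this step was made after the values were seen.

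**Figure D5:**
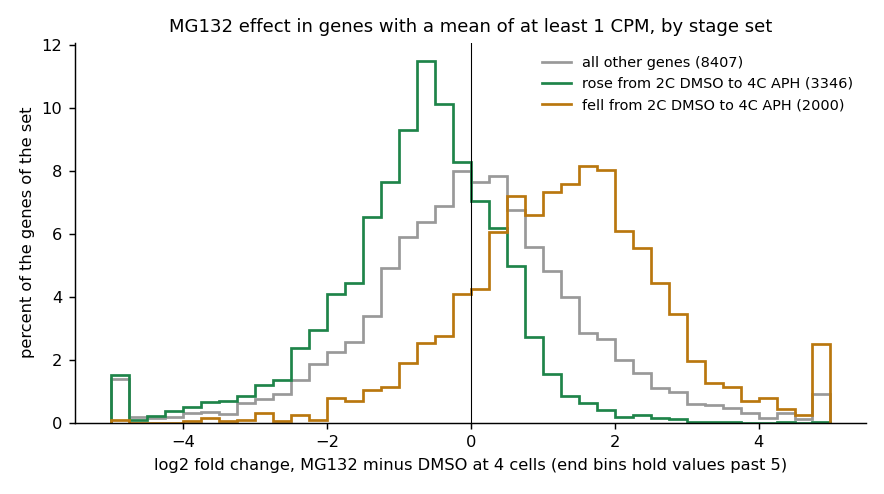
Distribution of the log2 fold change with MG132 at 4 cells (horizontal axis, end bins collect values past 5) as the percent of each set (vertical axis), for genes with a mean of at least 1 CPM. Genes that rose from 2-cell DMSO to 4-cell aphidicolin embryos (3346) peak below 0 and genes that fell (2000) peak above 0.

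The step from MII oocytes of 8-week females to 2-cell DMSO embryos was read in the same way. Of 2161 tested genes that rose 4-fold or more along it, 87 (4.03%) were higher and 74 (3.42%) lower with MG132 at 4 cells, against 3.06% and 4.33% of all genes. With 1 library left out, 1.45%, 0.964%, 2.77% and 1.93% of them were higher, against 1.06%, 0.66%, 1.18% and 1.82% of all genes, and without the filter 269 of 2459 (10.9%) were higher and 167 (6.79%) lower. Of 1060 tested genes that fell, 44 (4.15%) were higher and 117 (11.0%) lower; with 1 library left out, 5.57%, 5.29%, 6.70% and 5.84% of them were lower, and without the filter 98 of 1166 (8.40%) were higher and 175 (15.01%) lower.

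Markers of other cells that could come along were low in all 4 libraries, with 1 exception. The 12 cumulus and granulosa markers summed to 395 and 371 CPM with DMSO and 52.1 and 90.2 CPM with MG132, with 6 and 8 of 12 at 0 with DMSO and 5 and 8 with MG132, and nearly all of the sum was Gja1, connexin 43, which embryos also express (390.4 and 363 CPM with DMSO and 41.6 and 79.7 CPM with MG132, log2 fold change -2.64 ± 0.45, adjusted p = 0.0131). The 12 sperm markers summed to 16.8 and 29.1 CPM with DMSO and 10.1 and 7.23 CPM with MG132, the 10 blood and macrophage markers to 29.0 and 50.8 CPM and 12.1 and 19.5 CPM, and the 8 fibroblast markers to 2.63 and 1.61 CPM and 0.953 and 2.92 CPM. The part of these markers in the results above was not tested.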

How the data were processed

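Polyadenylated RNA of preimplantation mouse samples was measured by Smart-seq2, per the labels' protocols. The authors deposited 1 table of raw read counts per library, not normalized, over 55335 genes and 1153 repeat subfamilies; the submitters' processing notes name cutadapt 1.16, STAR and the mm10 build. The counter, its annotation, its use of strand and its treatment of multi-mapping reads are not stated in the sources used. Of 32 libraries 18 were used, grouped by their labels. Replicates differed beyond sampling noise, so none was merged. At 4 cells the chi-square per row was 57.1 with DMSO, 76.6 with MG132, 57.9 with cycloheximide and 249 with aphidicolin.

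Gene symbols and positions came from GENCODE vM21 on mm10 by ID without version, which matched 55154 IDs. Counts were analysed in R 4.3.3 with edgeR 4.0.16 (limma 3.58.1) and Python 3.11.15 with pandas 2.3.3. Rows passed filterByExpr (minimum count 10, total 15), TMM factors used genes and repeats together, and the robust quasi-likelihood F-test was run on the 8 libraries of the 4-cell stage, or on 16 libraries for the difference between stages, with Benjamini-Hochberg adjustment at 0.05 over genes and over repeats. Alternatives were DESeq2 1.42.0, other library sizes, filters and sets of libraries, a replicate block and leaving out each library. The script was tested on simulated counts, where edgeR recovered 66% of 4-fold and 100% of 16-fold changes (100 genes each, 21239 tested) in the comparison of MG132 with DMSO. The simulation gave all rows and groups the same dispersion, 0.1, and changed only genes with a mean of at least 5 CPM. Its recovery is therefore no measure of power in the real libraries.

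Named genes were the 15 largest changes in each direction (mean of 10 CPM or more in the higher group, groups not overlapping, predicted gene models left out), up to 5 called members per direction of each list role, a set of index genes, and the 8 largest repeat changes in each direction; the text prints a part of them. Genes outside that rule, such as Gja1, were named after their values were seen. Members and lists were chosen with earlier results of these data known. Folds against a group at 0 use a floor of 3 counts over the group, which covers counting error only, since reads carry no molecular identifiers. Promoter windows are from RefSeq on GRCm38.p6.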

Additional observations from a re-analysis of the deposited data

Results flagged for a closer look

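The change with MG132 differed between the 4-cell and the 2-cell stage, by edgeR's test of the difference itself at an adjusted p under 0.05, for 104 of the genes and subfamilies named here. Each value is the log2 fold change at 4 cells minus that at 2 cells, and over all 26804 genes its median was 0.42 and 10.3% were called. An upward value need not be a rise at 4 cells. Cdkn1a was not called there, and Obox6, Trim43a, Trim43b, Gja1 and Nupr1 were lower there with MG132. A downward value need not be a fall at 4 cells, where Psmd1 and Zp3 were not called. Proteasome genes differed upward, by 1.73 for Psme4. Among proteasome genes, downward values were -6.27 for Psma7, -6.13 for Psmg3, -4.78 for Psmb10, -4.09 for Psmc2, -4.01 for Psmc5, -3.78 for Psmc1, -3.72 for Psmc6, -3.54 for Psma6 and -3.49 for Psma4. Further downward values were -3.45 for Psma2, -3.44 for Psmb7, -3.37 for Psma1, -3.27 for Psmb5, -3.10 for Psmd10, -3.08 for Psmb4, -2.95 for Psmc4, -2.88 for Psmd14 and -2.85 for Psmd12. Further downward values were -2.59 for Psmd7, -2.37 for Pomp, -2.28 for Psmb2, -2.02 for Psmd1 and -1.91 for Psmb3. Chaperone genes differed upward, by 11.71 for Hspa1a, 10.88 for Hspa1b, 4.07 for Dnajb1, 3.75 for Hspe1, 2.87 for Hspa4l and 1.58 for Ahsa2. Among chaperone genes, downward values were -3.04 for Cct4, -1.80 for Cct5 and -1.79 for Dnajb6.

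Among oxidative phosphorylation genes, downward values were -7.14 for Ndufa8, -6.40 for Ndufs7, -5.17 for Uqcrc2, -4.83 for Ndufs5, -4.57 for Uqcrb, -4.23 for Sdhb, -3.74 for Uqcr11 and -3.69 for Atp5e. Oocyte genes differed upward, by 3.18 for Wee2, 3.04 for Btg4, 2.69 for Bmp15, 2.55 for Cnot6l, 2.52 for Nlrp4f and 2.48 for Spin1. Among oocyte genes, downward values were -2.26 for Zp3. Genes of the 2-cell stage differed upward, by 11.48 for Zfp352, 10.30 for Obox6, 7.61 for Obox3, 5.62 for Zscan4d, 5.06 for Trim43a and 5.002 for Trim43b. P53 targets differed upward, by 8.59 for Gadd45g, 6.81 for Gadd45a, 6.33 for Gadd45b, 3.68 for Btg2, 2.88 for Rrm2b, 2.87 for Cdkn1a and 1.63 for Mdm4. Immediate-early genes differed upward, by 9.38 for Ier5, 7.04 for Klf6, 6.36 for Dusp5, 6.17 for Egr1 and 3.70 for Dusp1.

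Among ribosomal protein genes, downward values were -3.61 for Rpl5. Repeat subfamilies differed upward, by 9.49 for MERVL-int, 6.92 for MT2_Mm, 4.08 for MusHAL1, 2.95 for IAPEz-int, 2.79 for L1Md_T and 2.04 for ORR1A1. Among repeat subfamilies, downward values were -3.64 for RLTR45-int, -2.29 for RLTR1B-int, -2.003 for RLTR45 and -1.84 for ERVB4_2-I_MM-int. Of the other genes named, the upward differences were 14.55 for Morc4, 9.74 for Bag3, 6.82 for Gja1, 6.50 for Mylip, 5.89 for Nupr1, 5.76 for Tmeff2, 4.72 for Zfp735, 4.33 for Kbtbd7 and 2.73 for Utp14b. Further upward values were 2.59 for Ddit3, 2.29 for Tra2b, 2.20 for Lin28b and 1.60 for Mthfd2. Of the other genes named, the downward differences were -9.85 for Olfr1459, -6.997 for Ly6a, -5.42 for Rdh13, -3.79 for Eif3d, -3.35 for Bhmt, -3.25 for Gnl3, -3.09 for Tk1, -2.85 for Ufd1 and -2.80 for Eif2s1.

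Further downward values were -2.79 for Eif2b1, -2.77 for Usp14, -2.65 for Zfp42, -2.61 for Uchl5 and -1.96 for Prdx1. For genes at 0 in both libraries of a group at a stage, such as Morc4 and Obox6, the fitted value depends on the prior count and is no bound. No group here has the 4 or more libraries that a check for single outlying libraries needs.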

How the results depend on the processing

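Counts of called genes and subfamilies moved with the test and the filter, and the cause was not tested. For MG132 against DMSO at 4 cells the 1663 genes were 4096 by DESeq2's Wald test (1962 higher, 2134 lower), 2548 among genes with at least 5 CPM in 2 libraries, 3463 with no low-count filter and 581 to 1050 with 1 library left out; the 8 repeat subfamilies were 47, 16, 37 and 2 to 8 in the same order, and 14 with the 4 compared libraries alone in the fit. For MG132 against cycloheximide the 2271 genes were 4539 by DESeq2, 3932 with no filter and 1004 to 1834 with 1 library left out, with 42.4% higher against 55.4% when the 4 libraries were fitted alone; the 18 subfamilies were 58 by DESeq2, 29 at 5 CPM, 51 with no filter and 7 to 17 with 1 library left out. For the difference between stages the 2774 genes were 4907 by DESeq2 and 1413 to 2322 with 1 library left out, and the 240 subfamilies were 449 and 99 to 234. In leave-one-out fits the lone sample is assumed to vary like the other groups.

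No named gene or subfamily reversed direction in a call. Over 2694 recomputed values for MG132 against DMSO, 2309 kept their side of the threshold, 350 lost it and 35 gained it, mostly where fewer samples were fitted. DESeq2 also called Gdf9, Hspa5, Npm1, Psmb5, Ubb, Zfp352, MERVL-int, MT2_Mm and MTA_Mm against DMSO, which edgeR did not (adjusted p from 0.0046 to 0.0356). With the step from 2-cell DMSO to 4-cell aphidicolin taken at 2-fold or 8-fold in place of 4-fold, 15.4% or 16.2% of the rising genes were lower and 9.85% or 7.34% of the falling genes higher; for the MII step, 10.4% or 10.7% of the falling genes were lower. Beside the sign changes given above, list medians changed sign to 0.0351 for the ubiquitin list without MG132 replicate 1, and 0.2712 and 0.0688 for H3K4 methylation enzymes without DMSO replicate 2 and MG132 replicate 2. Whether libraries with the same replicate number belong together was not settled. Correlations of same-numbered deviations ran from -0.032 to 0.155 over 8021 genes, and such low values cannot exclude pairing. With the replicate block the counts were 1916 genes and 11 subfamilies against DMSO, 2432 and 21 against cycloheximide, and 2956 and 254 between stages. At this depth and with 2 libraries per group, genes of small change or few counts were not resolvable.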
